A study of Rattus norvegicus with 6 samples.

Results

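De novo lipogenesis builds fatty acids from surplus carbon, and 10 rat genes of that route were followed here: Fasn, Acaca, Acacb, Scd, Elovl6, Acly, Me1, Srebf1, Mlxipl and Thrsp. They were chosen by name, for their place in the pathway. Of these 10, 9 had a row under that symbol among the 32623 genes of the deposited table, and 8 had enough counts to be tested. Mlxipl, which encodes the glucose-responsive factor ChREBP, was not matched to a row and was not analysed here. Elovl6 was in the table but nearly without counts.

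The tissue was rat liver, sampled as 6 bulk RNA libraries. The 3 GM libraries come from a group whose vessels were blocked with blank microspheres, which served as the control. The 3 GZM libraries come from a group treated with microspheres that carry zinc sulfide, so both groups were embolized. Hepatocellular carcinoma is the disease named in the title of the series. The labels name no strain, age, sex or time after embolization, and do not say if tumour or the liver around it was sampled. Nor do they say that the numbered replicates are separate animals, and p-values then measure only how these samples vary, which may be technical. Depth ran from 13443115 to 16604067 counts per library.

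In liver, citrate leaves the mitochondrion and is split to cytosolic acetyl-CoA, which acetyl-CoA carboxylase turns into malonyl-CoA. Fatty acid synthase then joins these units to palmitate with NADPH as the reductant, and elongases and desaturases finish the chain. Malonyl-CoA also blocks the entry of fatty acids into mitochondria, so the same intermediate serves synthesis and restrains oxidation. The insulin-driven factor SREBP-1c and the glucose-driven factor ChREBP raise the genes of the route together in fed liver.

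The libraries differed widely in their hepatocyte transcripts, and every value below has to be read beside that. The 23 matched hepatocyte markers made up 4.34%, 3.08% and 9.93% of counts across GM 1, 2 and 3, against 17.1%, 18.0% and 16.7% across GZM 1, 2 and 3. By this share GM 3 was the GM library nearest to GZM. Of the 23 markers 22 rose in GZM, where 22.2% of all genes were called higher and 21.7% lower by the test described below. All 10 cycling-cell markers fell in GZM, and their summed level was 563.2 to 1378 CPM (counts scaled to a common library size) in GM and 226.6 to 251.3 CPM in GZM. Of 8 T cell markers 2 fell (summed level 255.6 to 487.3 CPM in GM, 87.7 to 248.6 CPM in GZM), and of 8 macrophage markers 2 rose and 4 fell (909.0 to 2062 CPM, then 1086 to 1351 CPM). Of 7 endothelial markers 4 rose (162.1 to 317.5 CPM, then 400.0 to 465.9 CPM), of 7 stellate and fibroblast markers 1 rose and 1 fell (3491 to 9583 CPM, then 1804 to 4124 CPM), and of 6 bile duct markers 1 rose (126.5 to 284.3 CPM, then 124.0 to 205.9 CPM). Counts such as 2 of 8 T cell markers or 1 of 6 bile duct markers are near those shares. In bulk tissue, fewer cells of a type and less RNA per cell cannot be told apart. Of the fat-cell markers, leptin (Lep) had 0 counts in all 6 libraries, adiponectin (Adipoq) had 6 counts in GM and 7 in GZM in all, and perilipin 1 (Plin1) had 2 and 0. Among the 5 fat-cell markers with enough counts, Cidec and Lipe rose (log2 fold changes of 2.90 and 1.08) and Plin4 fell by 4.10. With library totals Lipe was at 0.26 and not called (adjusted p = 0.368). Hepatocytes can express Cidec and Lipe as well. The summed fat-cell marker level was 56.0 to 145.3 CPM in GM and 162.4 to 177.5 CPM in GZM. The part of these shifts in the lipogenesis results was not tested, apart from the hepatocyte-scaled values given below.

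The promoter sequences shown next belong to the genes on which the results turn: Acacb, which was called higher in every setting tried except those scaled to hepatocyte markers, Srebf1 and Thrsp, which stood out in the same GZM library, and Scd beside its paralog Scd2, which behaved differently. They are RefSeq sequences of build GRCr8, matched by symbol, 5′ to 3′ on the strand of the gene, and each holds the 150 bases before an annotated start. Capitals mark matches to the CCAAT box (CCAAT) or the GC box (GGGCGG), in either orientation. Srebf1 has 2 annotated starts, used by different transcripts. The deposited counts are per gene and do not separate them.
Acacb (chr12:48138215-48138364, minus strand): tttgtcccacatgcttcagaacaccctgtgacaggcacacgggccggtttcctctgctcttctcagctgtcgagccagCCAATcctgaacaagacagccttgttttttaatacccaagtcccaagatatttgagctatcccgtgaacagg
Srebf1 first window (chr10:45529165-45529314, minus strand): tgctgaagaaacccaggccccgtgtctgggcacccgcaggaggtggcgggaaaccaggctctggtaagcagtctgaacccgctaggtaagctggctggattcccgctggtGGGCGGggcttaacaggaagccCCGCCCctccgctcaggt
Srebf1 second window (chr10:45519011-45519160, minus strand): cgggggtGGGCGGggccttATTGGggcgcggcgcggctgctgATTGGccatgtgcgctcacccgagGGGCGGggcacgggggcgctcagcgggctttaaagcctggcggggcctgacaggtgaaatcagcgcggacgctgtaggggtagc
Thrsp (chr1:161138965-161139114, minus strand): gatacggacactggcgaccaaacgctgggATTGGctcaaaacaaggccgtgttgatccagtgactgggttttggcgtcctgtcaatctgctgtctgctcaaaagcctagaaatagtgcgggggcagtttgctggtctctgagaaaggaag
Scd (chr1:253231732-253231881, minus strand): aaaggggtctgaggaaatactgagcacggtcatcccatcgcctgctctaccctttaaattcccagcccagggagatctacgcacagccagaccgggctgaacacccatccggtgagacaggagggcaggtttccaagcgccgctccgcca
Scd2 (chr1:253118227-253118376, plus strand): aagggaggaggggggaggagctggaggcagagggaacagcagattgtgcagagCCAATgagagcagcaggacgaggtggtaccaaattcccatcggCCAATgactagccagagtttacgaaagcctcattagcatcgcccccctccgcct

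Over the full windows, 250 bases before to 50 after the start, 7 of the 10 genes had an entry, giving 9 windows. A CCAAT box lay in 7 of the 9 windows, against 37.5% of all 33469 promoter windows, and a GC box in 5 of 9, against 33.1%. In Acacb the CCAAT box lay at -72 to -68, and in Scd2 there were copies at -97 to -93 and -54 to -50. Neither the SREBP element TCACNCCAC (1.12% of all windows) nor the E-box CACGTG (6.42%) was matched in any of the 9 windows on either strand, and none of the matches overlapped another motif. This says only that these letters are not in these short stretches. The windows of Mlxipl overlap almost wholly and hold the same CCAAT boxes, so they are not independent. A match is a description and not a binding site.

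Measured per length, the route was led by its desaturase and its hormone-responsive protein. In GM, the authors' FPKM (counts scaled for gene length and for the library total) averaged 203.5 ± 90.6 for Scd, 152.8 ± 101.2 for Thrsp, 71.7 ± 19.2 for Acly, 33.6 ± 5.52 for Fasn, 25.3 ± 5.83 for Me1, 22.7 ± 3.45 for Srebf1, 11.1 ± 1.32 for Acaca and 4.05 ± 1.86 for Acacb (SD, n = 3). In GZM the order was Thrsp at 237.1 ± 136.1, Scd at 133.5 ± 91.0, Acly at 43.9 ± 9.23, Fasn at 31.6 ± 3.83, Srebf1 at 28.9 ± 20.9, Me1 at 15.9 ± 0.947, Acacb at 13.7 ± 3.22 and Acaca at 6.79 ± 1.58 (SD, n = 3). Neighbours whose libraries overlapped were Scd and Thrsp in both groups, Me1 and Srebf1 in both groups, Thrsp and Acly in GM, and, in GZM, Scd with Acly, Fasn with Srebf1 and Me1 with Acacb. The exchange of the last places is the clearest change of order: Acacb lay below Acaca in each GM library and above it in each GZM library.

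Between the groups, expression was compared as CPM with TMM scaling, which sets the libraries to a common level over most genes, and tested with edgeR's quasi-likelihood test at an adjusted p under 0.05 over 14298 genes. Of the 8 tested lipogenesis genes, 2 rose in GZM, Acacb and Fasn, and 0 fell. Over all genes 22.2% were called higher and 21.7% lower, so 2 of 8 is near the background. At an unadjusted p under 0.05, 4 of the 8 were higher and 0 lower (25.5% and 26.9% of all genes), and DESeq2 called 4 higher and 0 lower (20.3% of all genes higher). All 8 edgeR estimates with TMM scaling were above 0, with a median log2 fold change of 0.49 against -0.09 for all tested genes. The GZM libraries lay above every GM library for 3 of the 8 (Acacb, Fasn and Srebf1), against 28.4% of all genes.

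The scale decides much of this. With library totals in place of TMM, the median of all genes moved from -0.09 to -0.92, and the calls over all genes went from 3181 higher and 3104 lower to 1315 higher and 8513 lower. There, 1 lipogenesis gene was called higher (Acacb; 9.2% of all genes) and 3 lower (Acaca, Acly and Me1; 59.5% of all genes). Only Acacb was called on both scales, and with library totals 3 of the 8 estimates were above 0.

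**Figure D1:**
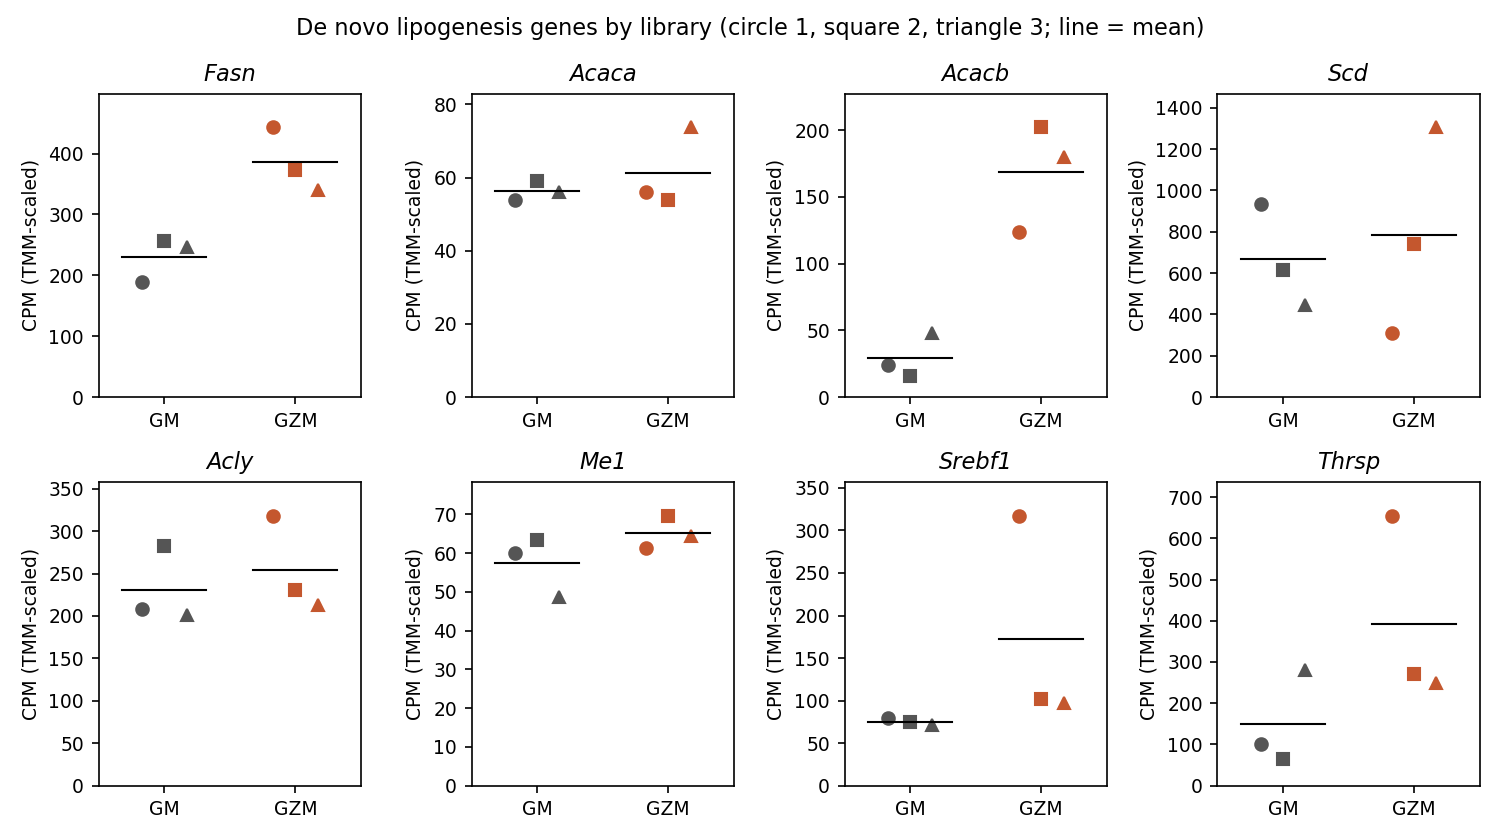
Level of each tested lipogenesis gene in the 6 libraries, as TMM-scaled CPM on a linear axis from 0, grey for GM and orange for GZM. Circles, squares and triangles are replicates 1, 2 and 3, and the line is the group mean. Acacb, Fasn and Srebf1 separate the groups, and Srebf1 and Thrsp stand highest in GZM 1, where Scd is lowest.

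Acetyl-CoA carboxylase has 2 forms, and they behaved differently. Acacb (ENSRNOG00000000658; chromosome 12, 48127149 to 48238887, minus strand in the deposited table) encodes the carboxylase held at the mitochondrial surface, whose malonyl-CoA restrains fatty acid oxidation. Its level was 23.9, 15.7 and 47.8 CPM in GM 1, 2 and 3, and 124.1, 202.2 and 179.8 CPM in GZM 1, 2 and 3. The groups did not overlap, and GM 3 was the highest of the GM libraries. Acacb was 5.80-fold higher in GZM (means of 29.1 ± 16.7 CPM in GM and 168.7 ± 40.3 CPM in GZM, SD, n = 3), with a log2 fold change of 2.54 ± 0.41 SE and an edgeR adjusted p of 0.00356. The call held in all 15 other settings, at log2 fold changes of 1.69 to 3.35 and adjusted p of at most 0.0233.

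Acaca (ENSRNOG00000034013; chromosome 10, 71536533 to 71719910, plus strand) encodes the cytosolic carboxylase, which feeds fatty acid synthesis. It stood at 54.0, 58.9 and 56.1 CPM in GM and at 56.2, 53.7 and 73.7 CPM in GZM. The groups overlapped, and the log2 fold change of 0.12 ± 0.16 SE did not pass (edgeR adjusted p = 0.571). With library totals Acaca was called lower (-0.71, adjusted p = 0.0162), close to the -0.92 of the median gene on that scale.

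A ratio within a library does not depend on the scale. The Acaca to Acacb ratio of FPKM was 3.07, 5.12 and 1.60 across GM 1, 2 and 3, against 0.616, 0.361 and 0.558 across GZM 1, 2 and 3. All GM libraries were above 1 and all GZM libraries below it. The mean log2 ratio differed by -2.55 (the SD of the log2 ratio was 0.84 in GM and 0.41 in GZM, n = 3; exact two-sided permutation p = 0.1, the smallest that 3 against 3 allows, and 0.133 adjusted over the 4 ratios examined).

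Among the other enzymes of the main line, Fasn (ENSRNOG00000045636; chromosome 10, 109987735 to 110005901, minus strand), which encodes fatty acid synthase, rose modestly. Its level was 188.6, 257.2 and 246.8 CPM in GM and 443.2, 373.6 and 340.0 CPM in GZM. The groups did not overlap, and Fasn was 1.67-fold higher in GZM (means of 230.9 ± 36.9 CPM in GM and 385.6 ± 52.6 CPM in GZM, SD, n = 3), with a log2 fold change of 0.74 ± 0.21 SE and an edgeR adjusted p of 0.0234. The call was lost without GM 1 (adjusted p = 0.0974), GZM 1 (0.0676) or GZM 2 (0.0723). With library totals the log2 fold change turned to -0.094 (adjusted p = 0.70).

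Acly (ENSRNOG00000016924; chromosome 10, 88392248 to 88442845, minus strand) encodes ATP citrate lyase, which releases acetyl-CoA from citrate. It measured 208.0, 282.0 and 200.5 CPM in GM and 318.1, 230.7 and 213.1 CPM in GZM. The groups overlapped and no difference was called (log2 fold change 0.14 ± 0.23 SE, edgeR adjusted p = 0.64). With library totals Acly was called lower (-0.71, adjusted p = 0.037). The Fasn to Acly ratio of FPKM was 0.429, 0.432 and 0.583 across GM, against 0.660, 0.767 and 0.756 across GZM, with no overlap. Its mean log2 value was higher by 0.61 in GZM (exact two-sided permutation p = 0.1, 0.133 adjusted over 4 ratios).

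Me1 (ENSRNOG00000009715; chromosome 8, 94256839 to 94368834, minus strand) encodes cytosolic malic enzyme, a source of NADPH for the synthase. Its level was 60.1, 63.5 and 48.7 CPM in GM and 61.4, 69.7 and 64.5 CPM in GZM. These ranges overlapped (log2 fold change 0.18 ± 0.15 SE, edgeR adjusted p = 0.366), and with library totals Me1 was called lower (-0.67, adjusted p = 0.0196).

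Scd (ENSRNOG00000013552; chromosome 1, 264160129 to 264172729, minus strand) encodes stearoyl-CoA desaturase, which turns saturated into monounsaturated fatty acids. Among the tested enzymes it had the widest spread within a group. It stood at 935.9, 616.1 and 448.1 CPM in GM 1, 2 and 3 and at 308.6, 740.8 and 1305 CPM in GZM 1, 2 and 3. GZM therefore held both the lowest and the highest of the 6 libraries, 4.23-fold apart, and no difference between groups was called (log2 fold change 0.24 ± 0.50 SE, edgeR adjusted p = 0.723). The direction turned without GZM 3 (-0.33) and with library totals (-0.61). The Scd to Fasn ratio of FPKM, 3.71 to 10.1 in GM and 1.42 to 7.84 in GZM, overlapped (exact two-sided permutation p = 0.5).

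The paralog Scd2, the form typical of tissues other than adult liver, fell. It measured 464.9, 589.8 and 357.6 CPM in GM and 128.4, 106.1 and 121.2 CPM in GZM, with no overlap. Scd2 was 3.97-fold lower in GZM (log2 fold change -1.99 ± 0.24 SE, edgeR adjusted p = 0.00218) and was called lower in all 15 other settings. The Scd to Scd2 ratio of FPKM, added after the values were seen, was 2.27, 1.18 and 1.41 across GM, against 2.71, 7.88 and 12.1 across GZM. The mean log2 ratio was higher by 2.03 in GZM, with no overlap (exact two-sided permutation p = 0.1, 0.133 adjusted over 4 ratios). The desaturase genes are similar in sequence, and reads they share could have been split between them by a counting method that is not given in the sources used here.

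**Figure D2:**
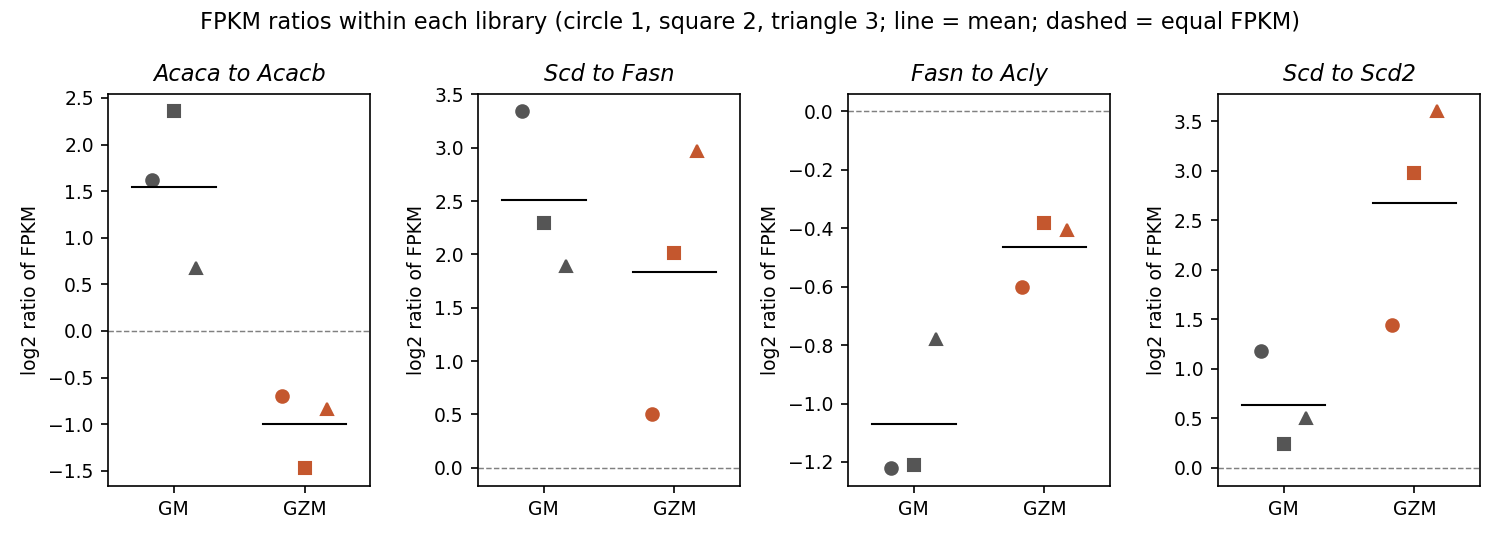
Log2 ratios of the authors' FPKM for 4 gene pairs within each library, grey for GM and orange for GZM, with the group mean as a line and equal FPKM as a dashed line. The Acaca to Acacb pair crosses the dashed line between the groups, the Fasn to Acly and Scd to Scd2 pairs do not overlap, and the Scd to Fasn pair does.

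Elovl6 (ENSRNOG00000010468; chromosome 2, 234189105 to 234296145, minus strand) encodes the elongase that takes palmitate to stearate. Its counts were 2, 1 and 0 across GM, against 0, 0 and 1 across GZM, too few to test. A neighbouring gene described as similar to Elovl6 (LOC102549542) had 16 counts in GM and 7 in GZM in all. How reads that match both were counted is not given in the sources used here, so the Elovl6 level is uncertain and is not evidence of absence.

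Srebf1 and Thrsp were both highest in GZM 1. Srebf1 (ENSRNOG00000003463; chromosome 10, 46570996 to 46593009, minus strand) encodes the SREBP-1 factors, which switch on Fasn, Acaca, Scd and other genes of the route. Its level was 79.1, 74.3 and 71.2 CPM in GM and 317.3, 101.9 and 97.1 CPM in GZM. GZM 1 stood 3.27-fold above GZM 3, while the GM libraries lay within 1.11-fold of each other. The groups did not overlap, but the log2 fold change of 1.20 ± 0.44 SE did not pass (edgeR adjusted p = 0.0583), and without GZM 1 it was 0.42 (adjusted p = 0.085). It did pass without GZM 2 (1.48, adjusted p = 0.0488) or GZM 3 (adjusted p = 0.0381), with no low-count filter (adjusted p = 0.0383) and with DESeq2 (adjusted p = 0.0191). Without both GM 3 and GZM 1, left out after seeing the data, it passed at 0.45 (edgeR adjusted p = 0.0473).

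Thrsp (ENSRNOG00000012404; chromosome 1, 162381253 to 162385575, minus strand) encodes Spot 14, a small protein induced by thyroid hormone and carbohydrate that accompanies lipogenesis. It measured 101.1, 64.7 and 280.8 CPM in GM and 654.7, 271.4 and 248.1 CPM in GZM. GM 3 lay within the GZM range, so the groups overlapped, and GZM 1 was again the highest. The log2 fold change of 1.39 ± 0.59 SE did not pass (edgeR adjusted p = 0.0909). It was 0.81 without GZM 1 (adjusted p = 0.291) and 0.63 with library totals (adjusted p = 0.298). Without GM 3 it passed at 2.27 (edgeR adjusted p = 0.00497), and with DESeq2 on all libraries at 1.40 (adjusted p = 0.0335). With GM 3 and GZM 1 both left out, a choice made after seeing the data, it passed at 1.72 (adjusted p = 0.000707).

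GZM 1 was thus the highest library for Fasn, Acly, Srebf1 and Thrsp and the lowest for Scd. The hepatocyte marker share was 17.1% in GZM 1, against 18.0% and 16.7% in GZM 2 and 3. Summed T cell markers were 248.6 CPM in GZM 1, against 87.7 and 106.9 CPM. Stellate and fibroblast markers were 4124 CPM, against 2449 and 1804 CPM, and bile duct markers 124.0 CPM, against 193.6 and 205.9 CPM. Whether these differences bear on the lipogenesis genes was not tested.

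Set against hepatocyte transcripts instead of all transcripts, the estimates of all 8 genes moved below 0, and the median of all genes moved down with them. Here each library was scaled to the median of its 23 hepatocyte markers, so a fold change gives the level per hepatocyte transcript. On that scale 6 of the 8 genes were called lower in GZM and 0 higher, also 0 at an unadjusted p under 0.05 (0.168% of all genes higher). The background is steep, since 88.9% of all genes were called lower and 0.161% higher by edgeR, and the median log2 fold change was -3.02 for all genes against -2.48 for the 8. The 6 called genes were Fasn (log2 fold change -2.22 ± 0.60 SE), Acaca (-2.82 ± 0.70), Scd (-2.74 ± 0.53), Acly (-2.91 ± 0.62), Me1 (-2.84 ± 0.70) and Srebf1 (-1.78 ± 0.66). Srebf1 lost its call without GM 1 (adjusted p = 0.0503), GZM 2 (0.126) or GZM 3 (0.104), and with the replicate number as a block (adjusted p = 0.0726). The GZM libraries lay below every GM library for 5 of the 8, against 90.7% of all genes. All p-values on this scale share the error of a single set of scaling factors.

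Of the 8 genes, Acacb moved most like the hepatocyte markers themselves. On the hepatocyte scale it measured 75.6, 73.0 and 56.0 across GM, against 46.7, 70.8 and 78.9 across GZM, in CPM scaled to hepatocyte markers. The groups overlapped, with a log2 fold change of -0.06 ± 0.66 SE (edgeR adjusted p = 0.935), between -0.20 and 0.12 over the 10 other settings of this scale. Its rise on the TMM scale was therefore of about the size of the rise in hepatocyte transcripts, whose median log2 fold change was 2.51. Thrsp was not called on the hepatocyte scale either (-1.08 ± 0.62, adjusted p = 0.0921), although it was called lower without GM 3 (-1.08, adjusted p = 0.00427).

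**Figure D3:**
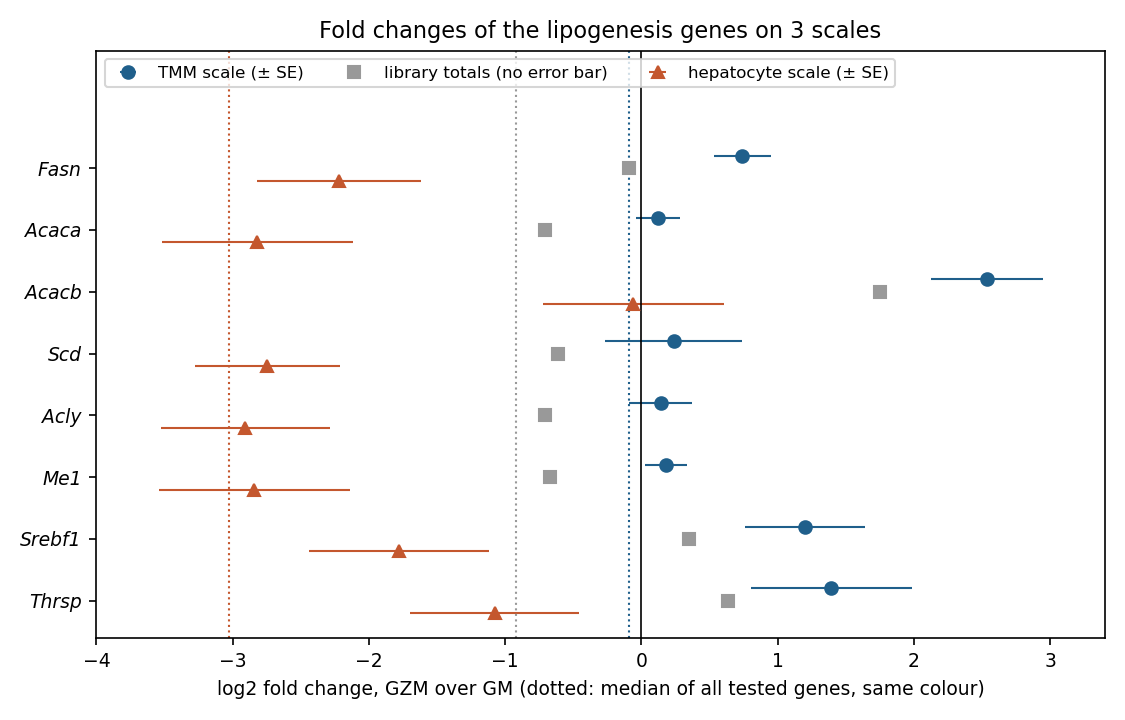
Log2 fold change of GZM over GM for the 8 tested genes on the TMM scale (circles, ± SE), with library totals (squares, no error bar) and relative to hepatocyte markers (triangles, ± SE). Dotted lines of the same colour give the median of all tested genes, at -0.09, -0.92 and -3.02, and Acacb lies farthest to the right of that median on each scale.

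The genes that supply carbon and NADPH to the route rose in part. Of 11 tested, 6 rose and 2 fell (over all genes 22.2% and 21.7%), with a median log2 fold change of 1.32. Slc25a1, the mitochondrial citrate exporter that delivers carbon to Acly, was at 41.2, 50.6 and 55.9 CPM in GM and 154.2, 199.4 and 184.3 CPM in GZM, a 3.64-fold rise (1.86 ± 0.19 SE, edgeR adjusted p = 0.00192). The mitochondrial malic enzymes diverged: Me3 rose by 2.95 and Me2 fell by 1.10 on the log2 scale. The liver pyruvate kinase gene Pklr rose by 1.53.

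Chain elongation and desaturation genes rose more often than they fell on the TMM scale. Of 16 tested, 11 rose and 2 fell (22.2% and 21.7% of all genes), with a median log2 fold change of 0.93. With library totals the calls were more even. Elovl2, Fads1, Fads2, Tecr, Cyb5a and Cyb5r3 were called higher there (9.2% of all genes). Elovl1, Elovl7, Hacd1, Hacd4 and Scd2 were called lower (59.5% of all genes), and the others were not called. The delta-5 desaturase gene Fads1, which makes polyunsaturated fatty acids, was at 198.1 to 232.2 CPM in GM and 549.0 to 767.5 CPM in GZM, a 3.28-fold rise (1.71 ± 0.22 SE, edgeR adjusted p = 0.00236). Tecr, the last reductase of the elongation cycle, rose by 1.44, and Cyb5r3, which passes electrons to the desaturases by way of cytochrome b5, by 1.39. Elovl3 and Elovl4 were too low to test, with 18 and 62 counts in GM and 0 and 2 in GZM. With Scd2 falling, the desaturases moved in different directions on the TMM scale and with library totals (0.89 for Fads1 and -2.84 for Scd2).

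The regulators around Srebf1 were split. Of 22 tested, 9 rose and 4 fell (22.2% and 21.7% of all genes), with a median log2 fold change of 0.33. The smallest p-values belonged to the genes of proteins that hold SREBP precursors in the endoplasmic reticulum. Insig1 was at 81.8 to 143.9 CPM in GM and 595.1 to 1032 CPM in GZM, a 7.44-fold rise (2.90 ± 0.32 SE, edgeR adjusted p = 0.00202). Insig2 was at 20.0 to 28.3 CPM in GM and 127.1 to 185.6 CPM in GZM, a 5.88-fold rise (2.56 ± 0.23 SE, edgeR adjusted p = 0.00185). Unlike Srebf1, both had GZM 1 as their lowest GZM library. Nr1h3, which encodes the sterol receptor LXR alpha, an activator of Srebf1, rose by 1.42. Pparg, the fat-cell regulator, fell by 2.07.

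Genes that restrain lipogenesis or spend its intermediate rose or were not called. Of 12 tested, 5 rose (22.2% of all genes) and the other 7 were not called, with a median log2 fold change of 0.66. Mlycd, the decarboxylase that removes malonyl-CoA, was at 13.9, 9.49 and 24.4 CPM in GM and 81.2, 84.4 and 75.5 CPM in GZM, a 5.05-fold rise (2.34 ± 0.32 SE, edgeR adjusted p = 0.00249) that was close in size to that of Acacb. Cpt1a, the malonyl-CoA-sensitive gate of mitochondrial oxidation, rose by 1.31. With library totals Cpt1a was at 0.51 (adjusted p = 0.049), and it was not called with limma (0.51, adjusted p = 0.0568). Nr0b2, which encodes the corepressor SHP, rose by 3.39. Lpin1, which makes diacylglycerol and can repress SREBP targets, rose by 1.05, but did not pass with GM 1 left out (adjusted p = 0.0539) or with library totals (0.25, adjusted p = 0.371).

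The receptor and kinase genes that carry the insulin signal were mostly not called. In this list 5 of 13 rose (22.2% of all genes) and the other 8 were not called, with a median log2 fold change of 0.46. Irs2, the main insulin receptor substrate of liver, rose by 1.87, the receptor gene Insr by 0.71, Pik3r1 by 0.59 and Rheb by 0.48. The last 3 turned to -0.13, -0.26 and -0.35 with library totals and were not called there. Pik3r1 lost its call without GZM 2 (adjusted p = 0.0756) or GZM 3 (0.0504), and Rheb without GM 1 (0.0719), GM 2 (0.054), GZM 2 (0.108) or GZM 3 (0.0951).

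With library totals the rises were smaller, at 0.73 for Pklr, 0.62 for Tecr, 0.56 for Cyb5r3, 0.61 for Nr1h3 and 1.04 for Irs2, and these 5 genes were still called.

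Relative to hepatocyte markers, most genes of these lists were called lower, other than the supply genes. Called lower in GZM on that scale were 5 of 11 supply genes, 13 of 16 elongation and desaturation genes, 20 of 22 regulators, 10 of 12 restraining genes and 12 of 13 insulin signal genes, against 88.9% of all genes. Mlycd was not called there (-0.32 ± 0.67 SE, edgeR adjusted p = 0.649), nor were Me3 (0.39 ± 0.72 SE), Insig1 (0.11 ± 0.60 SE), Insig2 (-0.32 ± 0.67 SE) and Nr0b2 (0.61 ± 0.69 SE). The log2 fold change of Scd2 there was -5.06 ± 0.63 SE, below the median of all genes at -3.02.

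**Figure D4:**
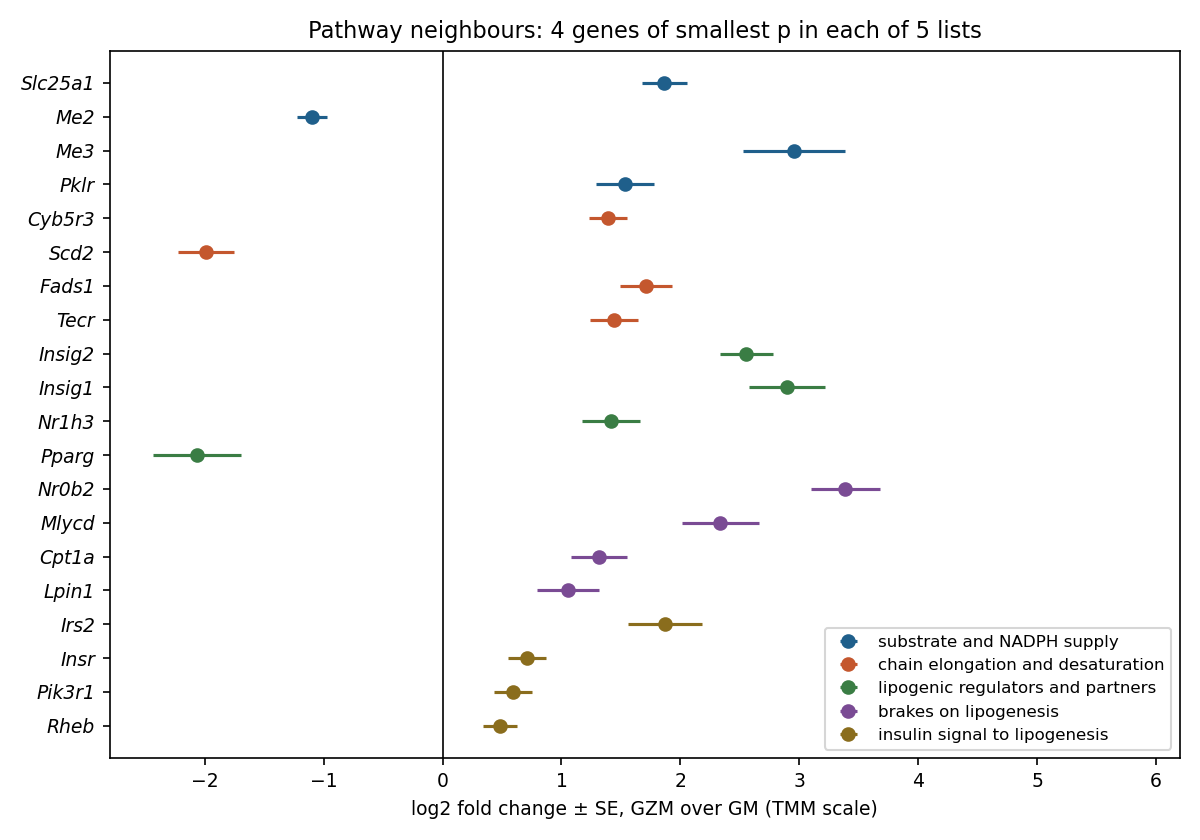
Log2 fold change (± SE, TMM scale) of GZM over GM for the 4 genes of smallest p in each of 5 lists around the route, coloured by list. Of the 20 genes, 17 lie to the right of 0, and Scd2, Pparg and Me2 lie to the left.

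The mean level of the 8 genes, centred over the libraries on the log2 CPM scale, was -0.42, -0.52 and -0.25 across GM 1, 2 and 3, against 0.50, 0.31 and 0.38 across GZM 1, 2 and 3. The genes outside all lists most like it over the 6 libraries were Furin, Srr, Ptprh, Ldhd and Mk1, with Pearson correlations from 0.9979 for Mk1 to 0.9999 for Furin. These correlations are over only 6 libraries that already separate by group, and are a description.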

How the data were processed

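Per the labels' protocols, RNA was taken from liver with TRIzol, enriched for poly(A), and made into strand-specific paired-end libraries. Which aligner and counter were used, and with which strand setting, is not given in the sources used here. Per the submitters' processing notes the build is mRatBN 7.2. Gene positions are printed as deposited, and since they run up to 282724300, past the end of that build's longest chromosome, their build is uncertain. The deposited counts are whole numbers per gene, not normalized. The deposited FPKM values follow from them: all 195738 recomputed values lay within 0.011. Exon lengths are deposited, per the file headers, as another column, in bases.

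GZM columns, headed ZGM, were matched by letters and number. Counts were tested across all genes with edgeR 4.0.16 (R 4.3.3) as described, with its default low-count filter and Benjamini-Hochberg adjustment. Standard errors are those implied by the quasi-F value. Hepatocyte scaling used median-of-ratios factors over 23 markers. Total counts per library are given above, and counts of every replicate pair differed beyond sampling noise (chi-square per degree of freedom of at least 10.5). Planned ratios with Mlxipl and Elovl6 could not be formed. The 10 members were fixed by name and not by their values. The 13 gene lists beside them (161 entries, 6 not matched) were chosen with earlier results of these data known. Named neighbours are the 4 genes of smallest p in each of 5 lists, besides elongation and desaturation genes named for low counts or for their calls with library totals.

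On simulated counts for 14298 genes of the GZM against GM comparison, edgeR with TMM found 18.4% of the genes changed 2-fold and 77.5% of those changed 4-fold, and made 2 false calls. The simulated libraries had the same expected depth, and only 98 genes changed 2-fold and 102 changed 4-fold, up or down. Hepatocyte markers were left unchanged. The shift in hepatocyte transcripts was thus not simulated, and these rates do not say how it affects the calls. Alternatives were no filter, other scalings, DESeq2 1.42.0, limma 3.58.1 on log2(FPKM + 0.5) or log2(FPKM + 0.1) with a mean FPKM of at least 0.5, a 2-fold minimum, a replicate block and leaving out libraries. Leaving out both GM 3 and GZM 1 was chosen after seeing the data. Some genes of the lists are not reported here. Figures used matplotlib 3.10.9.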

Additional observations from a re-analysis of the deposited data

How the results depend on the processing

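Of the 8 genes, 2 were called on the TMM scale, both higher. The number called was 4 (1 higher, 3 lower) with library totals and with limma on log2(FPKM + 0.5), 1 higher and 2 lower with a pseudocount of 0.1, 4 higher with DESeq2 and without both GM 3 and GZM 1, and 1 higher with a 2-fold minimum. Leaving out a single library gave 1 to 3 called, 1 to 3 higher and 0 lower. The calls over all genes moved as well. They were 1315 higher and 8381 lower of 14516 with limma on log2(FPKM + 0.5), and 1268 and 8289 with the pseudocount of 0.1. Without both GM 3 and GZM 1 they were 3645 higher and 3353 lower of 14593. The 2-fold minimum gave 872 higher and 659 lower of 14298. Single libraries left out gave 2112 to 3592 higher and 1665 to 3432 lower, of 14454 to 14843 genes.

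With the replicate number as a replicate block 1 gene was called, Acacb, and Fasn did not pass (0.74, adjusted p = 0.0727). Over all genes, 2676 of 14298 were called higher with that block and 2490 lower. The labels do not say that a number pairs samples. Same-numbered libraries deviated together in 1 of 3 pairs (correlations of -0.15, 0.16 and -0.30), and differently numbered ones gave -0.23 to 0.31. With 3 libraries per group these values cannot tell if the numbers pair samples, so the lost call stands as a limit on Fasn.

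Acacb, Scd2, Insig1, Insig2, Nr0b2, Mlycd and Slc25a1 kept direction and call in all 15 alternatives. Directions turned as follows. With library totals: Fasn -0.094, Acaca -0.71, Scd -0.61, Acly -0.71, Me1 -0.67, Insr -0.13, Pik3r1 -0.26 and Rheb -0.35. With limma on log2(FPKM + 0.5), whose values are scaled to library totals: Fasn -0.086, Acaca -0.68, Scd -0.76, Acly -0.69, Me1 -0.63, Insr -0.11, Pik3r1 -0.22 and Rheb -0.35. With the pseudocount of 0.1: Fasn -0.087, Acaca -0.72, Scd -0.76, Acly -0.69, Me1 -0.64, Insr -0.12, Pik3r1 -0.23 and Rheb -0.35. Leaving out single libraries moved Acly from -0.043 (without GZM 1) to 0.31, Acaca from -0.025 (without GZM 3) to 0.21 and Scd from -0.33 (without GZM 3) to 0.63. Acly was -0.063 without both GM 3 and GZM 1. On the hepatocyte scale Acacb was 0.084 with summed marker counts and -0.20 to 0.12 with single libraries left out (above 0 without GM 1 or GZM 1), never called. Apart from the scaling, the cause was not tested. On that scale 5 to 7 genes were called lower over 10 alternatives. Most of all tested genes were called lower in the same alternatives, 11542 to 13660 of 14298 to 14843. The calls of the lipogenesis genes therefore do not set them apart from other genes there. The 4 FPKM ratios kept their direction in each alternative run, the Scd to Fasn difference between -1.24 and -0.013.

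The smallest p that the 4 ratio tests allow is 0.1. The tested genes had at least 1794 counts per group, and Elovl6 had 3 in GM and 1 in GZM.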
